A study of Rattus norvegicus with 4 samples.

Results

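The NLRP3 inflammasome and pyroptosis genes were read on 4 arrays of rat macrophages exposed to a zinc iron oxide particle. The set named 10 genes, namely Nlrp3, Pycard, Casp1, Casp4, Gsdmd, Aim2, Nlrc4, Nek7, Txnip and P2rx7, and its probes were found by matching the accession of every gene probe to the rat RefSeq symbols. This gave 9 probes for 7 genes, out of 45598 gene probes and 16581 named genes on the array. Nlrp3 had 3 probes and Pycard, Casp1, Casp4, Nek7, Txnip and P2rx7 had 1 each, and every one of these probes was printed as 1 spot. No probe accession matched Gsdmd, Aim2 or Nlrc4, so they have no value here.

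All arrays belonged to 1 group. NR8383 cells, a macrophage line started from the lung lavage of a normal rat and labelled with 20 passages, had been incubated for 4 h with ZnFe2O4, the zinc iron oxide NRCWE021, at 17 µg/mL. They grew partly attached and partly floating in DMEM with heat-inactivated serum, glutamine, penicillin, streptomycin and amphotericin B, and the labels name no other agent. The series describes 4 biological replicates each of exposed and of unexposed cells. The unexposed arrays were not analysed here, so the values below are levels in exposed cells without a measure of the response. Replicates of 1 line share its genotype, and the spread between them holds both culture and array differences.

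Inflammasomes are protein platforms that form in the cytosol of macrophages. A sensor such as NLRP3 binds the adaptor ASC, encoded by Pycard, and ASC gathers caspase-1, which cuts the precursors of interleukin-1β and interleukin-18 and the pore-forming protein gasdermin D. Opening of the gasdermin pore ends in the lytic death called pyroptosis, and in alveolar macrophages this pathway is best known for its response to inhaled particles and crystals. Transcripts of Nlrp3 and of interleukin-1β are usually low until a priming signal acts through NF-kB, while assembly itself is a step of proteins that RNA levels do not show.

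The RefSeq table held promoters of 6 of the 10 genes, and 3 are shown as examples of a gene read by several probes (Nlrp3), a gene above background on every array (Casp1) and a gene at the level of the negative controls on 2 arrays (P2rx7). Each is the 250 bases before the listed start site, 5′ to 3′, on the GRCr8 build. The capitals mark GAGGAA, the core of the site bound by PU.1, the transcription factor of the macrophage lineage. The windows lie at chr10:44827848-44828097 on the plus strand for Nlrp3, chr8:10872580-10872829 on the plus strand for Casp1 and chr12:39594923-39595172 on the minus strand for P2rx7.
Nlrp3: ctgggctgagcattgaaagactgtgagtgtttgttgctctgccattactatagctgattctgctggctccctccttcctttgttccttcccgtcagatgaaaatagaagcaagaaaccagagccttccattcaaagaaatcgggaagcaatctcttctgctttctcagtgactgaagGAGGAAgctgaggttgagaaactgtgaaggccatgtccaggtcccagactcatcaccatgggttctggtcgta
Casp1: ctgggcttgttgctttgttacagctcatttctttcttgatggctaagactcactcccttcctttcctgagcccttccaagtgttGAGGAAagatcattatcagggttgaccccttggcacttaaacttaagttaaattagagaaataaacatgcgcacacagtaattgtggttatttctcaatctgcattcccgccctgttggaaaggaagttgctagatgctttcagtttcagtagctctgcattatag
P2rx7: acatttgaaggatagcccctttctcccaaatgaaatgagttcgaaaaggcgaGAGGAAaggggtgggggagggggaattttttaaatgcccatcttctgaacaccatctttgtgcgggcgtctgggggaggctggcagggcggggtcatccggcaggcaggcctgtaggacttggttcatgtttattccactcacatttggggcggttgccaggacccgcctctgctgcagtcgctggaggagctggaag
GAGGAA, searched on both strands, was found in the windows of Nlrp3, Casp1, Aim2 and P2rx7, which is 4 of 6, against 23.3% of all 33469 promoters of the same length. Its first base lay 73 bases before the start site in Nlrp3, 166 in Casp1 and 198 in P2rx7. The gene above background on every array and the gene at the level of the negative controls thus both carried these letters. The metal response core, TGCACNC or TGCGCNC on either strand, matched in the window of Casp1 alone among the 6, at 99 bases before the start site, and in 20.6% of all promoters. CACGTG, the E-box to which the glucose-sensing regulators of Txnip bind, matched in none of the 6 and in 5.59% of all promoters. The 6 windows are those of Nlrp3, Pycard, Casp1, Aim2, Nek7 and P2rx7, so the Txnip promoter was not searched. The matches are descriptions of letters and no binding was measured.

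The arrays did not read dim RNA alike, which bears on every value below. Of the 11 quality metrics of the scanner software, 2, 8, 5 and 2 were out of range on replicates 1 to 4. Each array carries 10 spike-in probes for control RNAs that are added to the labelling reaction and do not come from the cells. The first of them in order of brightness on replicates 1 and 4 had a mean processed signal of 3.72 and 3.92 intensity units on these arrays, but 526 on replicate 2 and 112 on replicate 3. The brightest spike-in probe read 44997, 22232, 35684 and 33074 on replicates 1 to 4. The 3 spike-in probes of lowest signal on replicates 1 and 4 reached up to 1214 on replicate 2, above the sixth probe in that order, at 659. Negative control spots, with outlier spots left out, stayed dim on all arrays, and the highest read 24.3 units. A probe is called detected below where the scanner software marked its spot as well above the local background, which held for 38.6%, 88.1%, 66.7% and 32.3% of gene probes on replicates 1 to 4. Among 27690 probes that were not detected on replicate 1 or 4, 83.3% were on replicate 2, with a median signal of 347, and 54.9% were on replicate 3, with a median of 75.7. Values of replicates 1 and 4 are therefore given beside the detection counts and levels, a choice made with the control spots known. The order of the spike-in probes is the one these arrays gave, and the amounts of control RNA were not used here.

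**Figure D1:**
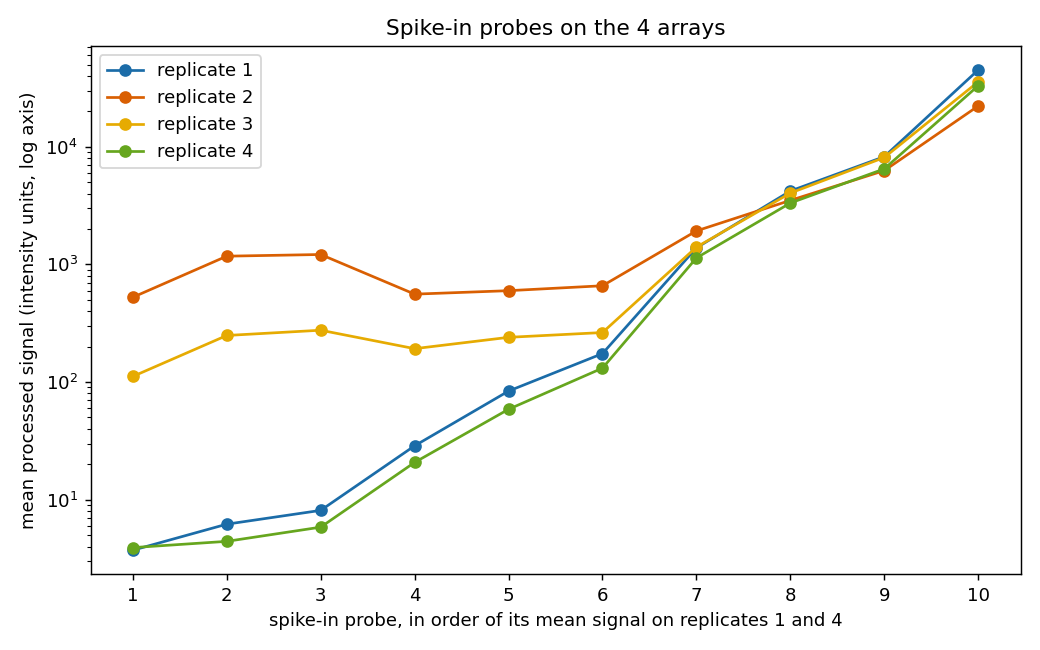
Mean processed signal of the 10 spike-in probes on each array, on a log axis, with the probes in order of their mean signal on replicates 1 and 4. Replicates 1 and 4, which set this order, start at 3.72 and 3.92, while the first 6 probes lie between 526 and 1214 on replicate 2 and between 112 and 276 on replicate 3.

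Of the 7 genes with a probe, 5 were detected on all 4 arrays, namely Nlrp3, Pycard, Casp1, Casp4 and Nek7. Over the 16526 named genes with a value on all arrays this share was 42.6%. On the pair of replicates 1 and 4, Txnip joined these genes, which makes 6 of 7, where the share over all named genes was 46%. P2rx7 was detected on replicates 2 and 3 alone. Each single array thus had 6 of 7 genes detected, against 52.5%, 91.8%, 75.7% and 46.4% of all named genes on replicates 1 to 4. By probe, 5 of 9 were detected on all arrays, against 28.5% of gene probes, and 7 of 9 on replicates 1 and 4, against 32%. No spot of the 9 probes was saturated or marked as an outlier.

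Other thresholds gave other counts. With the software's milder flag, for a signal that is positive and significant, 6 of 7 genes and 8 of 9 probes passed on all 4 arrays, against 60.6% of named genes and 47% of gene probes. With a threshold set by the spike-in probes, a signal more than 3 SD over the dimmest of them on the same array, 0 of 7 genes passed on all 4 arrays, against 18.9% of named genes and 12.2% of gene probes. That threshold lay at 7.34, 1070, 238 and 8.38 units on replicates 1 to 4, while the lowest signal marked as well above background was 15.2, 96.3, 56.6 and 13.8. It was thus the milder of both on replicates 1 and 4 and the stricter on replicates 2 and 3. Pycard, with 1055, missed it on replicate 2 only. The Nlrp3 probe A_44_P1109874, with 534, missed it on replicate 2 only as well. On replicate 2 all 9 probes lay under the 1214 units of a spike-in probe that read 8.11 on replicate 1, as did 85.6% of gene probes, and 7 of the 9 were brightest on that array, as were 86.7% of gene probes.

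**Figure D2:**
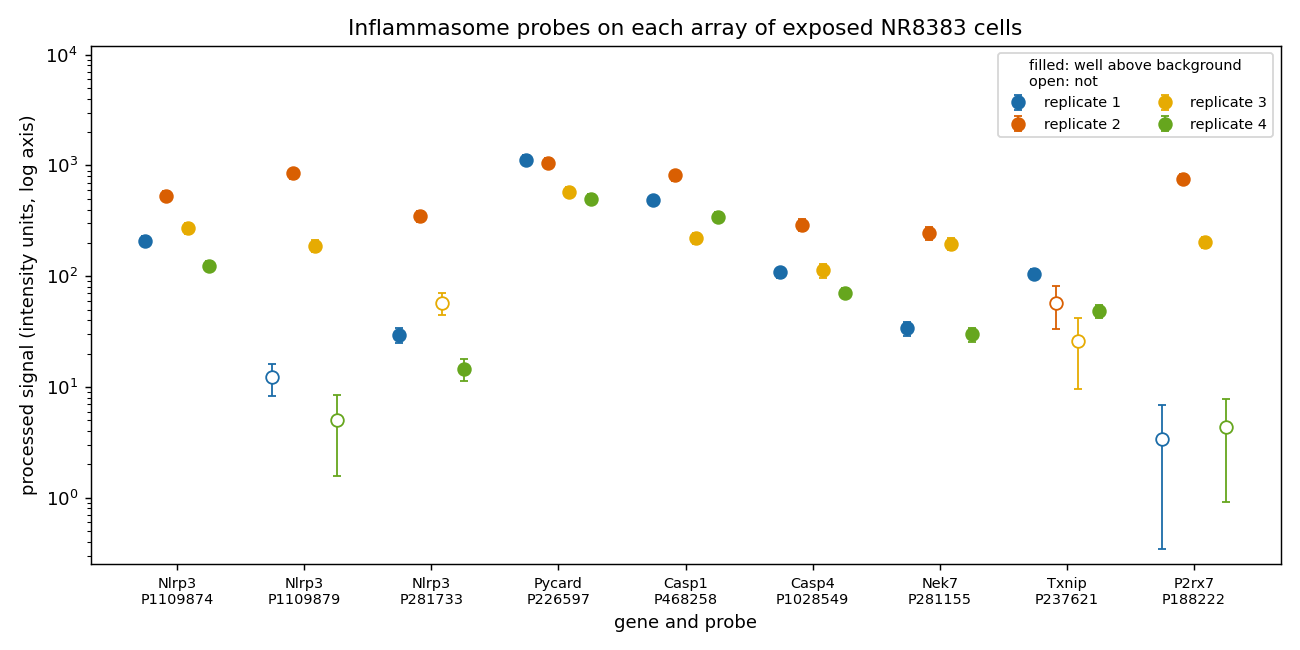
Processed signal, in intensity units on a log axis, of the 9 probes of 7 inflammasome genes on the 4 arrays. Filled points were detected and open points were not. Bars are the error of the scanner software for 1 spot, and the lower bar of P2rx7 on replicate 1 is cut because the error exceeds the signal. Pycard runs from 498 to 1129 over the arrays, and P2rx7 from 3.41 to 757 with open points on replicates 1 and 4.

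Nlrp3, the sensor of the group, was read by 3 probes that did not give the same answer. The probe A_44_P1109874, which the array assigns to the predicted transcript XM_006246453, had processed signals of 207 ± 21.1, 534 ± 56.8, 270 ± 31.2 and 124 ± 13.3 on replicates 1 to 4, where the error is that of the scanner software for the spot. Detection held on all 4 arrays, at 48.8 and 25.4 times the 97.5th percentile of the negative controls on replicates 1 and 4. The probe A_44_P281733, assigned to NM_001191642, read 29.4 ± 4.41, 347 ± 40.9, 57.7 ± 13.0 and 14.6 ± 3.22. It was detected on replicates 1, 2 and 4 and not on replicate 3, a pattern found in 2.42% of all gene probes. The probe A_44_P1109879, assigned to the same NM_001191642, read 12.2 ± 3.87, 846 ± 87.7, 189 ± 23.3 and 5.05 ± 3.48. It was detected on replicates 2 and 3 alone, as were 32.7% of all gene probes, and on replicate 4 it lay at 1.03 times the 97.5th percentile of the negative controls. Nlrp3 therefore counts as above background on replicates 1 and 4 through 2 of its probes, and on all 4 arrays through the first. Probes that disagreed on detection on all 4 arrays were found in 25.6% of the 3658 genes with several probes.

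Levels are the log2 processed signal relative to the 75th percentile on the same array, which removes a shift of the whole array. The percentile was taken over the 12948 probes that were detected on all 4 arrays. A negative level thus marks a signal under that percentile, not a loss. The scaling subtracts a single value per array, so the unlike reading of dim spike-in probes on replicates 2 and 3 remains. Levels of dim probes are therefore not like for like between these arrays and replicates 1 and 4. Each array read the RNA of a whole culture, so fewer cells with a transcript and less of it per cell cannot be told apart. On this scale the first Nlrp3 probe had levels of -3.00, -1.64, -1.58 and -2.75, with a mean of -2.24 ± 0.74 (SD, n = 4). Replicates 2 and 3 were above replicates 1 and 4, as were the signals of the dim spike-in probes. How many of all probes had this split was not counted. The mean of replicates 1 and 4 was -2.87. For the other 2 probes the range over the arrays was wider, from -5.84 to -2.26 and from -7.37 to -0.98. RefSeq lists Nlrp3 on chromosome 10 between Zfp496 and the olfactory receptor gene Or2b11.

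Pycard, which encodes the adaptor ASC, had processed signals of 1129 ± 113, 1055 ± 108, 578 ± 60.1 and 498 ± 50.0 on replicates 1 to 4. The signal was high on replicates 1 and 2 and low on replicates 3 and 4, the same split as the 75th percentile itself, which was 1658, 1669, 807 and 834. Relative to it, the levels were -0.55, -0.66, -0.48 and -0.74, with a mean of -0.61 ± 0.12 (SD, n = 4). The mean of replicates 1 and 4 was -0.65. Under this scaling, 97.5% of the 12948 probes detected on all arrays had a larger SD than Pycard. That rank depends on the scaling. With the percentile taken over all gene probes, Pycard had an SD of 1.63, against a median of 1.47 over the 12948 probes. The signal lay at 266 times the 97.5th percentile of the negative controls on replicate 1 and 102 times on replicate 4. On replicate 3 only 0.0433% of the 27690 probes that were dim on replicates 1 and 4 exceeded its signal, and 8.45% did on replicate 2.

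Casp1 encodes caspase-1, the protease that the adaptor activates, and Casp4 encodes the caspase that senses lipopolysaccharide in the cytosol and is called caspase-11 in mice. Both were detected on all 4 arrays. Casp1 had processed signals of 484 ± 48.5, 814 ± 84.2, 219 ± 24.9 and 342 ± 34.3, and levels of -1.78, -1.04, -1.88 and -1.29, with a mean of -1.50 ± 0.40 (SD, n = 4). Replicate 2 was highest and replicate 3 lowest, so replicates 2 and 3 held both ends of its range. Casp4 had processed signals of 108 ± 11.3, 291 ± 37.0, 113 ± 16.1 and 71.0 ± 7.61. Its levels were -3.93, -2.52, -2.84 and -3.55, with a mean of -3.21 ± 0.65 (SD, n = 4). Here replicates 2 and 3 were both above replicates 1 and 4, a split whose share over all probes was not counted. The mean of replicates 1 and 4 was -1.53 for Casp1 and -3.74 for Casp4. On replicate 2, 57.3% of the probes that were dim on replicates 1 and 4 read brighter than Casp4, and 16.1% read brighter than Casp1.

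The genes of these caspases are neighbours in RefSeq, with Casp4 between Casp1 and Casp12 on chromosome 8. Casp12, another caspase of the inflammatory group, had processed signals of 23.2, 318, 113 and 13.4. It was detected on replicates 1, 2 and 3 and not on replicate 4.

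Nek7, a kinase that binds NLRP3 and is needed for its assembly, had processed signals of 33.8 ± 4.69, 244 ± 32.6, 196 ± 22.9 and 29.8 ± 4.15. It was detected on all arrays, but on replicates 1 and 4 at 7.96 and 6.11 times the 97.5th percentile of the negative controls only. Its levels were -5.62, -2.77, -2.04 and -4.81, with a mean of -3.81 ± 1.68 (SD, n = 4), the widest of the 5 probes that were detected on all arrays. Replicates 2 and 3 lay above replicates 1 and 4, as did the signals of the dim spike-in probes. The share of all probes with this split was not counted. The mean of replicates 1 and 4 was -5.21. On replicate 2, 63.6% of the probes that were dim on replicates 1 and 4 read brighter than Nek7.

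Txnip encodes a thioredoxin-binding protein that is induced by glucose and reported to bind NLRP3 under oxidative stress. Its processed signals were 105 ± 11.3, 57.7 ± 24.5, 25.8 ± 16.2 and 48.8 ± 6.47. It was detected on replicates 1 and 4 and not on replicates 2 and 3. That pattern was found in 362 of 45385 gene probes, or 0.798%. Its signal was higher on replicate 1 than on replicates 2 and 3, as in 36.3% of the 14504 probes detected on replicates 1 and 4, while over all gene probes 88.2% were brighter on replicate 2 than on replicate 1. On replicate 2, 91.4% of the 27690 probes that were dim on replicates 1 and 4 read brighter than Txnip, and on replicate 3 76.9% did. At 2.38 and 1.46 times the 97.5th percentile of the negative controls, its signal on replicates 2 and 3 has an error of 42.4% and 62.6%. The levels on replicates 1 and 4 were -3.98 and -4.10.

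P2rx7, the ATP-gated channel whose opening lets potassium leave the cell and triggers NLRP3, was at the level of the negative controls on replicates 1 and 4. The processed signals were 3.41 ± 3.42 and 4.33 ± 3.41 there, or 0.802 and 0.887 times the 97.5th percentile of the negative controls, and 757 ± 79.3 and 203 ± 24.5 on replicates 2 and 3. Detection was limited to the latter arrays. On those arrays 18.4% and 11.8% of the probes that were dim on replicates 1 and 4 read brighter still. The median signal of these dim probes was 347 on replicate 2 and 75.7 on replicate 3. The next gene on chromosome 12, P2rx4, encodes another ATP-gated channel and was detected on all 4 arrays, with processed signals of 76.8, 656, 129 and 39.5.

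On replicates 1 and 4, 14504 gene probes were detected on both arrays. Over these probes the level on replicate 4 minus that on replicate 1 had a median of 0.07 log2 units, and the median absolute difference was 0.23. The 7 inflammasome probes detected on both arrays were set against that median, with the combined error of the scanner software. Nek7 differed by 0.74 ± 0.28, and 6.83% of the 14504 probes differed by more. Casp1 differed by 0.42 ± 0.20, and 23.8% of the probes differed by more. These differences are 2.61 and 2.05 times their error. Scaling on all gene probes or on spike-ins leaves them equal by construction. Both kept their sign under quantile normalization, normexp and the raw intensities of the series' value table. Under these they ran from 0.46 to 0.53 for Nek7 and from 0.30 to 0.46 for Casp1. Casp4 differed by 0.31 ± 0.22, and by 0.20 to 0.50 under the same settings. Pycard differed by -0.26 ± 0.20, but by -0.55 under normexp and -0.52 under the raw intensities of the series' value table. Nek7 was at 0.53 and 0.47 under normexp and the raw intensities, where Pycard was the probe with the largest difference. Under quantile normalization and the scalings that only shift whole arrays, Nek7 was. The Nlrp3 probes A_44_P1109874 and A_44_P281733 differed by 0.18 ± 0.21 and -0.09 ± 0.39, and Txnip by -0.19 ± 0.25, all within their error. The 3 last values changed sign under normexp and under the raw intensities. The error covers 1 spot on 1 array and not the difference between cultures, and with 1 group no test was made.

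**Figure D3:**
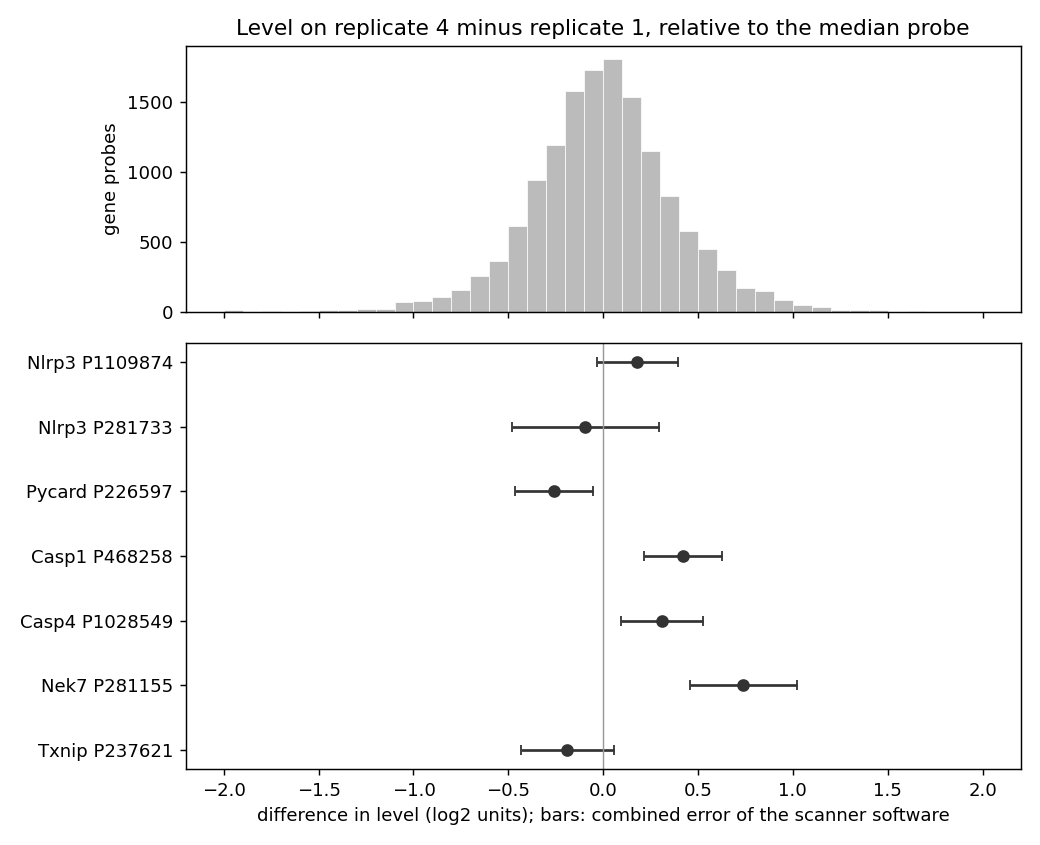
Level on replicate 4 minus replicate 1, in log2 units relative to the median probe. The upper panel counts the 14504 gene probes detected on both arrays, with differences beyond 2 units placed in the end bins, and the lower panel shows the 7 inflammasome probes with the combined error of the scanner software. On this scale Nek7 lies farthest from 0, at 0.74, while under normexp and the raw intensities Pycard does, and 3 of the 7 intervals include 0.

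The spread over all 4 arrays depended on how the arrays were scaled. The 5 probes detected on all arrays had SDs from 0.12 for Pycard to 1.68 for Nek7, with a median of 0.65, against a median of 0.47 over all 12948 such probes. With the 75th percentile taken over all gene probes, the median became 1.03 for the 5 probes and 1.47 for all. Under that scaling Pycard had an SD of 1.63 and Nek7 of 0.74, so their order was turned around. Quantile normalization gave 0.75 and 1.26, and scaling on the 3 brightest spike-in probes gave 0.63 and 1.73 for Pycard and Nek7. Whether Pycard or Nek7 varied more between the cultures thus has no answer that holds for every scaling run here.

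**Figure D4:**
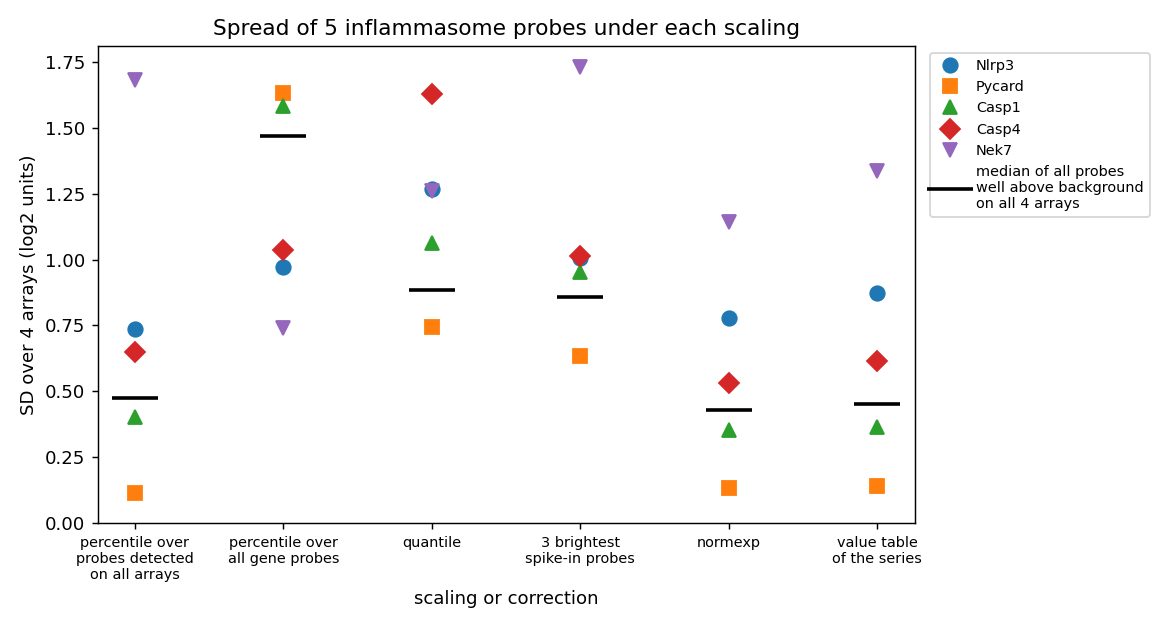
SD over the 4 arrays, in log2 units, of the 5 inflammasome probes that were detected on all arrays, under 6 scalings or corrections. Black bars give the median SD of the 12948 probes detected on all arrays. Pycard is lowest under 5 of the settings and highest, at 1.63, under the percentile over all gene probes.

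Other genes of the pathway were followed in lists by role, named below by the first 3 listed members with a probe. A gene counts as detected on an array if any of its probes was. In the list of substrates and the exit of cytokines, 5 of 7 genes were detected on all 4 arrays and the same number on replicates 1 and 4. Il1b, the precursor of interleukin-1β, had processed signals of 2267, 2167, 1229 and 1101 on replicates 1 to 4 and a level of 0.46 ± 0.10 (SD, n = 4), with 0.43 as the mean of replicates 1 and 4. Il18 had 2201, 1990, 895 and 1223, and a level of 0.34 ± 0.18, or 0.48 on replicates 1 and 4. Il1a, a related cytokine released from dying cells, had a level of 0.18 ± 0.39, or 0.43 on replicates 1 and 4. These genes, with Ninj1 and Hmgb1, also passed the spike-in threshold on every array, as did 18.9% of all named genes. Of the 7 inflammasome genes 0 did, a count decided on replicate 2, where Pycard read 1055 against a threshold of 1070. Gsdma and Gsdme, gasdermins other than gasdermin D, were not detected on replicate 1 or 4. Txn1, the thioredoxin that Txnip binds, had a level of 5.87 ± 0.37, or 6.06 on replicates 1 and 4, and its signal ran from 51323 to 97151.

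Among other sensors and receptors, 5 of 10 genes were detected on all 4 arrays and the same number on replicates 1 and 4. The sensors Nlrp6, Nlrp10, Nlrp12 and Mefv were not detected on replicate 1 or 4, and Nlrp1a was detected on replicates 1 to 3. Nlrp6, with 14.4, 1783, 391 and 15.3, nevertheless passed the spike-in threshold on all 4 arrays. The genes that were above background were the receptors Tlr2, Tlr4 and Nod1, the adaptor Myd88 and the nucleic acid sensor Zbp1. Tlr4, which senses lipopolysaccharide and can prime Nlrp3, had signals of 262, 530, 176 and 101. Of other caspases and death kinases, 7 of 9 were detected on all arrays and 8 on replicates 1 and 4. Casp2 and Casp6, caspases known from apoptosis, had levels of -0.82 ± 0.15 and -2.82 ± 0.38 (SD, n = 4), or -0.74 and -2.84 on replicates 1 and 4.

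For ion flux and the lysosome, 6 of 9 genes were detected on all arrays and 7 on replicates 1 and 4. The potassium channel gene Kcnk6 had a level of -1.14 ± 0.42, or -1.40 on replicates 1 and 4. P2rx4 had a level of -3.21 ± 1.49, but -4.42 on replicates 1 and 4. Panx1, a channel that releases ATP, was not detected on replicate 1 or 4. Activating partners reached 8 of 9 on all arrays, and also on replicates 1 and 4, with Pstpip1, which binds pyrin, at -1.22 ± 0.33 over all arrays and -1.49 on these. Inhibitors reached 5 of 7 by either count. Il1rn, the antagonist of the interleukin-1 receptor, had a level of 1.24 ± 0.37, Il18bp, which binds interleukin-18, one of -2.09 ± 0.38, and Serpinb1a, an inhibitor of neutrophil proteases and inflammatory caspases, one of 1.75 ± 0.38. On replicates 1 and 4 these were 1.53, -2.42 and 2.04. Membrane repair genes, which encode the ESCRT machinery that removes gasdermin pores, reached 5 of 7 on all arrays and 6 on replicates 1 and 4. Chmp2a and Chmp3 had levels of 1.40 ± 0.24 and -0.96 ± 0.67, and Vps4a one of -2.19 ± 0.97. On replicates 1 and 4 they were 1.52, -1.29 and -2.96. These counts stand against 42.6% of all named genes on all arrays and 46% on replicates 1 and 4.

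**Figure D5:**
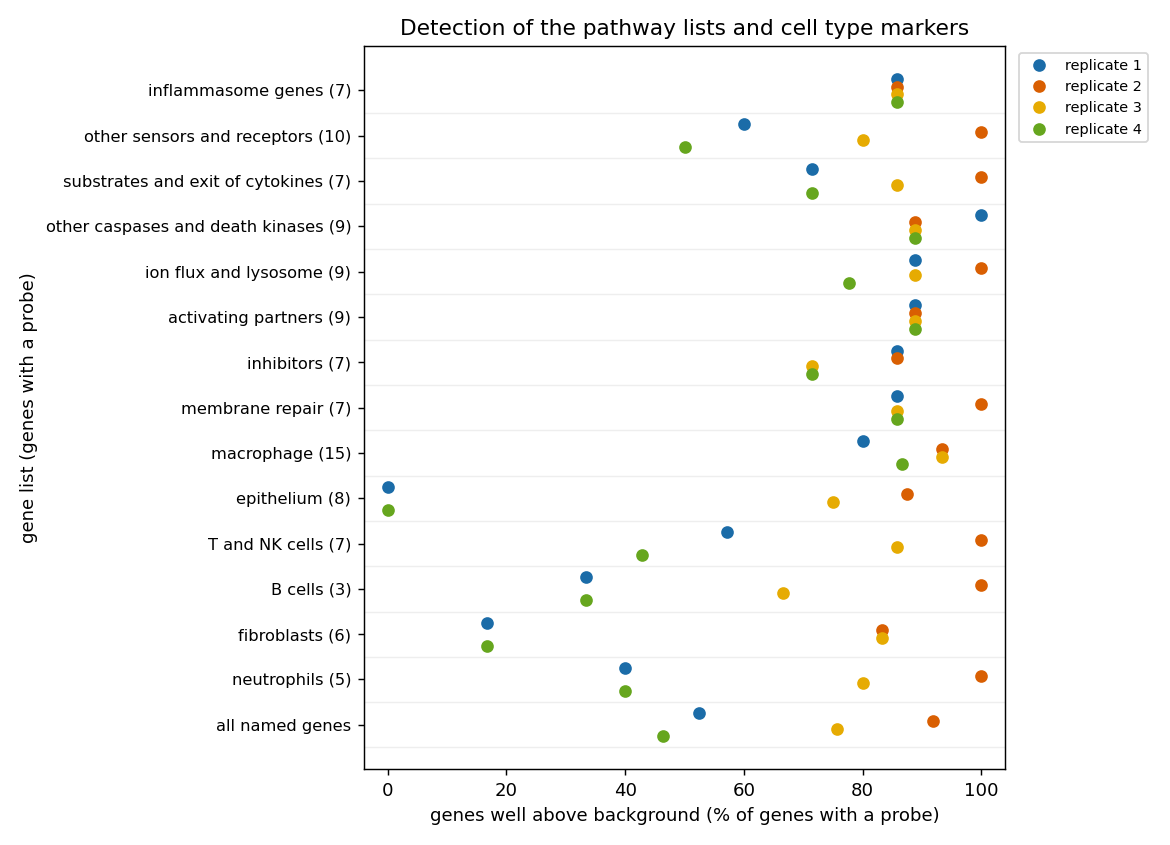
Share of genes detected on each array, in percent of the genes with a probe, for the inflammasome genes, 7 lists of pathway genes, 6 lists of cell type markers and all named genes. The inflammasome genes stand at 6 of 7 on each array, and epithelial markers at 0 of 8 on replicates 1 and 4 but 7 and 6 of 8 on replicates 2 and 3.

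The label of a macrophage line was checked against marker genes. Of 15 macrophage markers with a probe, 14 had a value on all arrays and 12 were detected on all arrays, among them Cd68, Lyz2, Spi1, Ptprc, Fcgr1a and Tyrobp, and the summed signal of the 14 ran from 78541 on replicate 4 to 152397 on replicate 1. Marco and Adgre1 were not detected on replicate 1 or 4. Of 8 epithelial markers, 0 were detected on replicates 1 and 4, where their summed signal was 42.5 and 31.9, and 7 and 6 were on replicates 2 and 3, with 4909 and 1119. Markers of T and NK cells reached 3 of 7 on all arrays (Cd4, which rat macrophages also carry, Lck and Nkg7), with Cd3e and Cd3g not detected on replicate 1 or 4. B cell, fibroblast and neutrophil markers reached 1 of 3 (Pax5), 1 of 6 (Dcn) and 2 of 5 (S100a8 and Camp) on all arrays. Over all named genes that share was 42.6%. The summed signal of each of the 5 lists other than macrophage was highest on replicate 2. The part of these markers in the inflammasome values was not tested.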

How the data were processed

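RNA of 4 cultures was labelled with Cy3 and hybridised to 1-colour Agilent rat arrays. The deposited intensities come from Agilent Feature Extraction 11.0.1.1, per the file headers. Its processed signal has background and a spatial trend removed on each array, and the headers record no step between arrays. The authors' value table equals the median spot intensity on all 62976 spots of each of the 4 arrays. The flags of 0 or 1 are the software's. The array design names another rat build than GRCr8, so no coordinates of probes are given.

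Control spots and outlier spots were left out, log2 processed signals of 1 probe's spots were averaged, and 45385 of 45598 probes had a value on all arrays. Levels were scaled to the 75th percentile of the probes well above background on all arrays, since under 50 in 100 probes were, and not to that of all probes, which is an alternative. Names came from unversioned RefSeq accessions (GRCr8; 21109 probes named). Signals and levels of a listed gene with several probes are those of its brightest probe. Counts of genes take a gene as detected on an array if any of its probes was. Brcc3 and Cflar thus count on all arrays, though no single probe of theirs was detected on all. Nlrp1a counts on replicate 1 through a probe other than its brightest. Spot errors are those of the software. With 1 group no test was made; SDs are over 4 arrays, whose number limits the precision. Normexp (offset 50, on median intensities) and quantile normalization used limma 3.58.1 in R 4.3.3; the rest used Python 3.11.15. The scaling was also run on simulated data, and no conclusion is drawn from that run. It cannot speak to the unlike reading of dim RNA between arrays, because the scaling only shifts whole arrays.

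The 10 genes, the lists and the scaling were chosen with earlier results of these data known. The text names all 10, the first 3 measured genes of each list with a level where well above background on all arrays, and Il1b and Il18; some genes under this rule are not reported here. Genes named by neighbourhood (Casp12) and Tlr2, Tlr4, Nod1, Myd88, Zbp1, Nlrp12, Mefv, Gsdma and Gsdme were chosen after their values were seen, as were the marker genes named. Alternatives were another flag, the spike-in threshold, every probe of a gene, outlier spots kept, other scalings and corrections, the value table, no filter on dim probes and leaving out each replicate. Replicates 1 and 4 alone was added after seeing the data, as were the SDs without each replicate.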

Additional observations from a re-analysis of the deposited data

How the results depend on the processing

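No paired analysis was possible because the replicate numbers belong to 1 group. The count of 5 genes well above background on all 4 arrays became 6 with the flag for a positive and significant signal. It was 4 when every probe had to pass, 5 with outlier spots kept and 5 without each replicate in turn. On replicates 1 and 4 alone it was 6, and with the spike-in threshold it fell to 0. Over all named genes the share was 42.6% on all 4 arrays and 60.6% with the flag for a positive and significant signal. It was 46% on replicates 1 and 4 alone and 18.9% with the spike-in threshold. For the other settings the share over all named genes was not counted. The count of 5 probes became 8 with the flag for a positive and significant signal, when 47% of all gene probes passed, and 0 with the spike-in threshold, which 12.2% of all gene probes passed. It ranged from 5 to 6 without 1 replicate, was 5 with outlier spots kept and was 7 on replicates 1 and 4 alone. Of all gene probes, 28.5% were well above background on all 4 arrays and 32% on replicates 1 and 4. That share was not counted without 1 replicate or with outlier spots kept. On replicates 1, 3 and 4 Pycard and the first Nlrp3 probe passed the spike-in threshold, so replicate 2 decides the count of 0 genes.

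On replicates 1 and 4 alone the level of Nek7 was -5.21 against -3.81 on all arrays, that of the Nlrp3 probe A_44_P1109874 -2.87 against -2.24 and that of Casp4 -3.74 against -3.21. Scaling on all probes or on spike-ins leaves the mean level equal by construction. On a common zero, normexp moved 2 of the 5 levels by more than the SD, quantile normalization 3 and the authors' values moved 1. The SD changed by more than 1.5 times in 4 of 5 probes under the percentile over all probes and under quantile normalization, in 3 under spike-in scaling and in 3 on replicates 1 and 4 alone. The median SD of 0.65 was 0.74 with no filter on dim probes and 0.27 on replicates 1 and 4 alone. A signal under 15.2, 96.3, 56.6 or 13.8 units on replicates 1 to 4 was never marked as well above background.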
